A study of Mus musculus with 54 samples.

Results

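The genes described here are Tnf and 9 genes of its receptors and their signalling: Tnfaip3, Tnfrsf1a, Tnfrsf1b, Traf1, Traf2, Cd40, Tnip1, Birc3 and Tnfsf9. They were taken by symbol from a table of read counts in primary mouse microglia and make up 10 of the 16632 genes listed. All 10 were among the 13169 genes that passed the filter on low counts and were tested.

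The cells were primary microglia of neonatal C57BL/6 mice, grown with L929 cell supernatant in the medium and shaken off a layer of astrocytes, with brains pooled in each flask. Donor cells received 1 µM fluorescent alpha-synuclein (aSyn) for 14 h, and acceptor cells received a violet tracer dye for 15 min. Both were then mixed, left together and sorted apart again by flow cytometry, so that donors and acceptors of a given time came out of mixed dishes. The 14 groups were untreated cells, aSyn-treated cells, and sorted donors and acceptors labelled 0, 15, 30, 60, 150 or 300 min; how the 0 min cells were handled is not given in the sources used here. Each group held libraries from 4 experiments, numbered in the titles, except donors and acceptors at 0 min (experiments 1, 2 and 3), donors at 60 min (experiments 1, 3 and 4) and acceptors at 300 min (experiments 1, 2 and 4). Experiment 1 was labelled passage 3, experiment 2 passage 1, and experiments 3 and 4 passage 2. Passage thus went with the experiment, and its part in the results was not tested. Untreated libraries with the same number were summed, leaving 52 values for each gene from 54 libraries, and library totals lay between 7807389 and 15537493 counts. Levels are given as CPM, a gene's count scaled to the library's TMM-adjusted total, and where 4 values are listed they are those of experiments 1, 2, 3 and 4 in that order. No count here tells fewer expressing cells apart from less RNA per cell, since each library is a bulk sample.

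TNF is a cytokine that microglia make and release when they are activated. It binds a receptor found on most cells, encoded by Tnfrsf1a, and a second receptor found mainly on immune cells, encoded by Tnfrsf1b. Engaged receptors gather TRAF adaptors and the ubiquitin ligases of the cIAP family, which start NF-κB and MAP kinase signalling. NF-κB in turn induces Tnfaip3, which encodes the ubiquitin-editing enzyme A20, and its partner Tnip1, and these dampen the signal.

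Promoters are shown for 3 members, because the first carries the clearest response to aSyn and the other 2, from the feedback arm, were the members whose promoter held a match to the NF-κB (κB) consensus. Sequences are from RefSeq (build GRCm38.p6), which matched 8 of the 10 members in the promoter table; Cd40 and Tnfsf9 had no entry. Each run gives the bases just before the RefSeq start, 5′ to 3′ along the gene, stopping at 250 or at an annotated exon, and capitals mark matches to the κB consensus on either strand. The Tnfrsf1b run is chr4:145246871-145247120, the Tnfaip3 run chr10:19015411-19015547 and the Tnip1 run chr11:54962941-54963190, all on the minus strand. The Tnfaip3 run lies inside the span of that gene in the GENCODE annotation, chr10:19000910-19015657, whose start is further upstream than the RefSeq start used here.
Tnfrsf1b: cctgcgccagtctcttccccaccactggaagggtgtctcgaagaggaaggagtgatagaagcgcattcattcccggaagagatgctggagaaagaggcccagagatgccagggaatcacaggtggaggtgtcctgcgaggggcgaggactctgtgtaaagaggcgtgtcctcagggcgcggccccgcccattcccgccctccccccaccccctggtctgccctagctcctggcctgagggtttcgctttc
Tnfaip3: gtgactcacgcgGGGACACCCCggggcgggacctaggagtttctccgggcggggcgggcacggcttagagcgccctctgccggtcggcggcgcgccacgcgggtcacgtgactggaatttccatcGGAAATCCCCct
Tnip1: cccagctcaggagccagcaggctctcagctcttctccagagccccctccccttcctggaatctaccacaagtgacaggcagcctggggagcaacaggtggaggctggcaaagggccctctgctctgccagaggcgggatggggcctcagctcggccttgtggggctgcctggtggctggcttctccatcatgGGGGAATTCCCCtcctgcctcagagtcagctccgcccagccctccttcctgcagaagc
The κB decamer consensus was searched on both strands over 300 bases, from 250 before to 50 after the start, and was held by 1480 of 32851 promoters (4.51%). Counted by gene, it was held by 1388 of 27025 genes (5.14%) and by 2 of the 8 members. Tnfaip3 had one match on the plus strand of the run from base -125 to -116 and one on the other strand from -12 to -3, counted from the start. A second Tnfaip3 promoter in the same table held none. The 4 overlapping matches of Tnip1, 2 on each strand, fell in a single palindromic stretch between bases -58 and -47. These letters were not found in the windows of Tnf, Tnfrsf1a, Tnfrsf1b, Traf1, Traf2 or Birc3.

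Experiment 4 stood apart from the others before any comparison. Its libraries carry a separate range of facility numbers, the ribosomal precursor Rn45s took 13.4 to 22.1% of its counts against 1.42 to 13.5% in experiments 1 to 3, and the summed level of 8 microglia markers was 1931 to 3780 CPM against 4467 to 8076 CPM. All 8 microglia markers were detected in every group. Members are therefore also given without experiment 4, which are the within-batch values of the other 3. The part of this batch in the results was not tested. Nothing in the labels says that experiments were separate animals, so p-values measure only the spread between these samples, which may be technical.

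The first question was what aSyn alone did to the pathway. The receptor Tnfrsf1b, the adaptor Traf2 and the feedback gene Tnip1 rose, while Tnf itself and the other TNF receptor, Tnfrsf1a, showed no called change. The edgeR quasi-likelihood test called 3 of 10 members, all of them higher after aSyn, with the threshold at 0.05 after Benjamini-Hochberg adjustment. Over all genes it called 2.50%, and 1.60% were higher. With the replicate number as a block (the replicate block), which compares cells within experiments, it called 6 of 10 members, all higher, beside 19.2% of all genes called and 8.95% called higher. The median log2 fold change of the members was 1.13 without the block, beside -0.043 over all genes tested. In a fit of these 2 groups alone no member was called (edgeR), with Tnfrsf1b nearest at an adjusted p of 0.0732, while 3 fell to 1 without experiment 1 or 3 and to 2 without experiment 2 or 4, and DESeq2 called 4. Over all genes 37 were called in the 2 groups alone and 607 by DESeq2. Without experiment 1, 2, 3 or 4 it was 187, 219, 73 and 301.

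**Figure D1:**
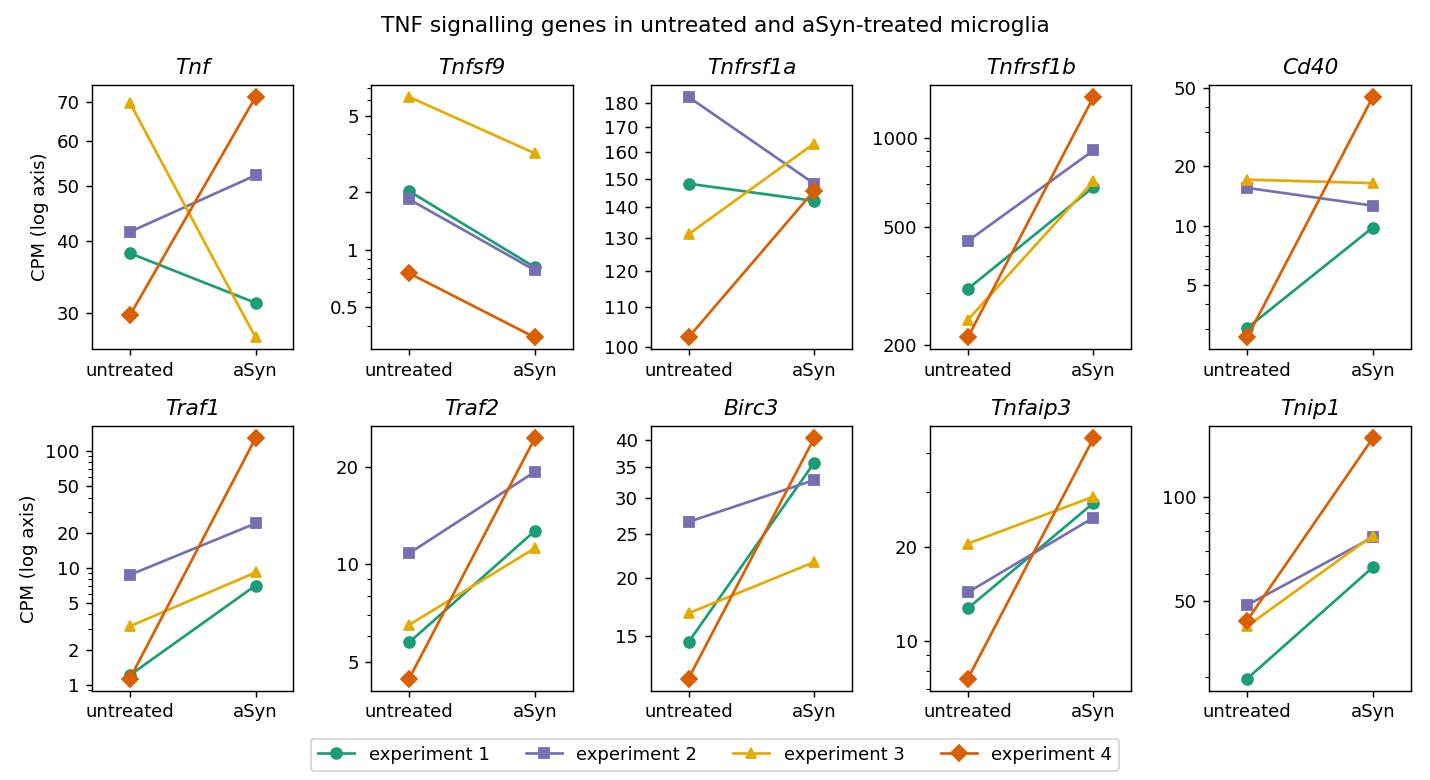
CPM on a log axis of each member in untreated and aSyn-treated cells, with 1 line for each of the 4 experiments. The lines of 6 members rise in every experiment, those of Tnf, Tnfrsf1a and Cd40 cross, and Tnfsf9 is lower in aSyn-treated cells in all 4.

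Tnf, the ligand that names the pathway, had 38.1, 41.6, 69.8 and 29.7 CPM in untreated cells. In aSyn-treated cells it had 31.2, 52.2, 27.2 and 71.5 CPM. It was higher with aSyn in experiments 2 and 4 and lower in experiments 1 and 3, and the groups overlapped over most of their range. The log2 fold change was 0.024 ± 0.34 (SE, adjusted p = 0.982), with a 95% confidence interval of -0.67 to 0.71, which leaves room for changes of that size in either direction. Without experiment 4 it was -0.42, and with the replicate block -0.072, so its sign depended on the setting. Tnfsf9 encodes 4-1BB ligand, a costimulatory member of the TNF family. It was close to the limit of these libraries, at 2.02, 1.83, 6.26 and 0.754 CPM in untreated and 0.811, 0.782, 3.18 and 0.349 CPM in aSyn-treated cells. It was lower with aSyn in 4 of 4 experiments, but the values spread more between experiments than between groups, and its log2 fold change of -1.06 ± 0.67 (SE, adjusted p = 0.434) was not called.

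Tnfrsf1a, the broadly expressed TNF receptor, had 148, 183, 131 and 102 CPM in untreated cells and 142, 148, 163 and 146 CPM in aSyn-treated cells. The aSyn-treated values lay inside the untreated range, and the 95% confidence interval of the log2 fold change was -0.18 to 0.35 around 0.087, with an adjusted p of 0.788. Tnfrsf1b, the receptor of immune cells, had 309, 448, 242.9 and 212 CPM in untreated cells. With aSyn it had 681, 906, 714 and 1372 CPM. Every aSyn-treated value was above every untreated one, and the log2 difference was 1.60 ± 0.28 (SE, adjusted p = 0.00105). It was the only member called with each experiment left out in turn, with log2 fold changes from 1.21 to 1.88 and edgeR adjusted p-values from 0.00125 to 0.0264. Cd40, the receptor through which T cells activate microglia, had 3.03, 15.6, 17.1 and 2.71 CPM in untreated and 9.80, 12.7, 16.5 and 45.0 CPM in aSyn-treated cells. It was higher with aSyn in experiments 1 and 4 and lower in 2 and 3, and the log2 fold change of 1.12 ± 0.72 (SE, adjusted p = 0.440) was not called. Without experiment 4 its log2 fold change was 0.13.

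Traf1 encodes a TRAF adaptor that is itself an NF-κB target and lacks the ligase domain of the other family members. It had 1.21, 8.72, 3.17 and 1.13 CPM in untreated cells. In aSyn-treated cells it had 7.07, 24.0, 9.14 and 129 CPM. It was higher in 4 of 4 experiments, but the aSyn-treated value of experiment 1 was below the untreated value of experiment 2, and experiment 4 was far above the rest. The log2 fold change was 3.53 ± 1.07 (SE, adjusted p = 0.0660) without the block and 2.81 ± 0.66 (SE, adjusted p = 0.00210) with it. Without experiment 4 and with the replicate block it was 1.70 (adjusted p = 3.27e-05), so the call did not rest on experiment 4 but the size did.

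Traf2, the adaptor that binds both TRADD at the first TNF receptor and the tail of the second, had 5.75, 10.8, 6.51 and 4.45 CPM in untreated cells. With aSyn it had 12.7, 19.3, 11.2 and 24.4 CPM. The groups did not overlap, by a gap of 10.8 to 11.2 CPM, and the log2 fold change was 1.29 ± 0.32 (SE, adjusted p = 0.0205). The call was lost without experiment 1, 3 or 4 (adjusted p = 0.0541, 0.114 and 0.106), and with the replicate block the adjusted p was 0.000206. Birc3, the ubiquitin ligase cIAP2 that TRAF2 recruits, had 14.5, 26.6, 16.8 and 12.1 CPM in untreated and 35.7, 32.8, 21.7 and 40.4 CPM in aSyn-treated cells. It was higher in 4 of 4 experiments although the groups overlapped, with experiment 2 high without aSyn and experiment 3 low with it. Its log2 fold change was 0.90 ± 0.30 (SE, adjusted p = 0.0989) without the block and 0.84 ± 0.23 (SE, adjusted p = 0.00828) with it.

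Tnfaip3, which encodes A20, had 12.7, 14.3, 20.5 and 7.58 CPM in untreated cells and 27.6, 24.8, 28.9 and 44.5 CPM in aSyn-treated cells. The groups did not overlap, the value was higher in 4 of 4 experiments, and the log2 fold change was 1.20 ± 0.45 (SE, adjusted p = 0.144) without the block and 1.08 ± 0.30 (SE, adjusted p = 0.00917) with it. Tnip1, whose product ABIN1 binds A20, had 29.8, 48.6, 42.3 and 43.9 CPM in untreated cells. With aSyn it had 62.6, 76.5, 77.4 and 148 CPM. It did not overlap between groups either, and the log2 difference came to 1.15 ± 0.32 (SE, adjusted p = 0.0384). Without experiment 1, 2 or 3 the call was lost (adjusted p = 0.0760, 0.0901 and 0.234), and with the replicate block the adjusted p was 2.25e-05. In all, 4 of 10 members had every aSyn-treated value above every untreated one, beside 4.50% of all genes.

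**Figure D2:**
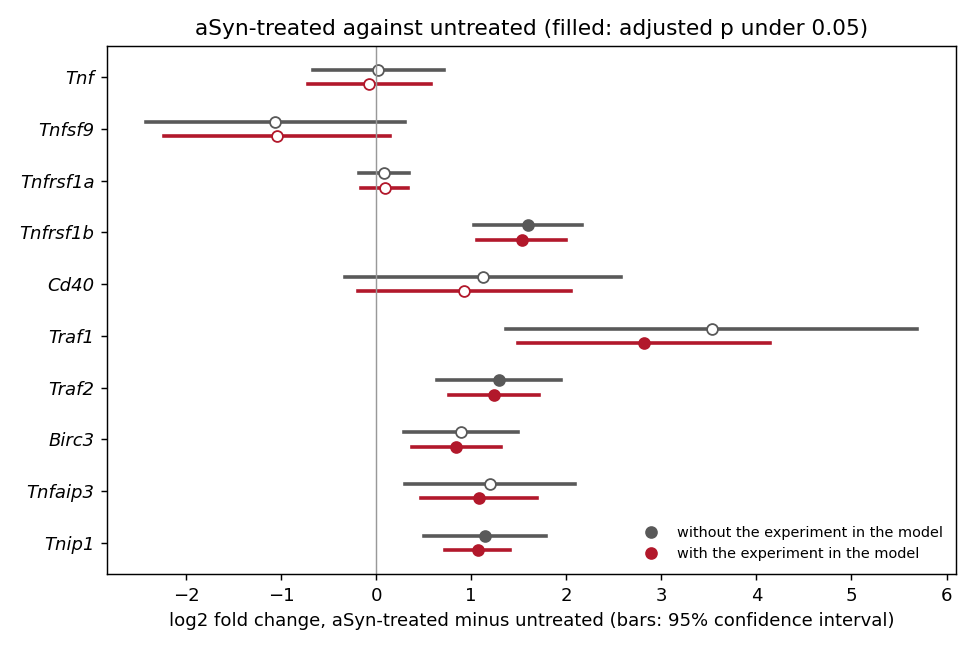
Log2 fold change of aSyn-treated against untreated cells (points) with 95% confidence intervals (bars), without the replicate number in the model (grey) and with it (red); filled points passed an adjusted p-value of 0.05. The intervals of Tnf and Tnfrsf1a span 0 in both models, and those of Tnfrsf1b, Traf2 and Tnip1 lie above 0 in both.

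The levels of markers of other cells are given beside these results. The summed level of 7 astrocyte markers was 10.4 to 135 CPM in untreated and 11.2 to 28.9 CPM in aSyn-treated cells, and that of 6 oligodendrocyte-lineage markers was 115 to 566 and 78.3 to 238.9 CPM. None of these markers was at 0 throughout either group. Without the block 0 of 7 and 0 of 6 were called by edgeR, and with it 5 of 7 and 3 of 6 were lower in aSyn-treated cells. Among microglia markers the block called Cx3cr1 lower and Tmem119 higher in aSyn-treated cells, and the summed level of the 8 markers was 3633 to 6914 CPM untreated and 2157 to 5061 CPM with aSyn. Among 3 endothelial and fibroblast markers Pecam1 was called higher in both fits, with means of 0.297 and 1.81 CPM. Of 3 tested neuronal markers none was called by edgeR in either fit. The T cell markers Cd3e and Cd3g and the neutrophil marker S100a9 were not tested. The neutrophil marker S100a8 had means of 0.226 CPM untreated and 2.12 CPM with aSyn. With aSyn it ran from 0.284 to 6.72 CPM with a median of 0.744 CPM, so the highest value raised the mean. The log2 fold change of S100a8 was 3.26 (edgeR adjusted p = 0.322) without the block and 2.67 (edgeR adjusted p = 0.0616) with it, not called in either. The part of other cells in the changes of Tnfrsf1b, Traf2 and Tnip1 was not tested.

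The wider TNF pathway was described with a list of 97 other ligands, receptors, release factors, receptor-complex proteins, feedback genes and death-arm genes. Of its 83 tested genes, 5 were called without the replicate block, all higher with aSyn, beside the 2.50% of all genes. With the block 17 were called, 14 higher and 3 lower, beside 19.2%. The median log2 fold change of the list was 0.13, against 1.13 for the 10 members. Fas, the death receptor, had 1.82 to 6.51 CPM in untreated and 13.6 to 28.7 CPM in aSyn-treated cells (n = 4 each), a log2 fold change of 2.24 by edgeR (adjusted p = 0.00478). Litaf, a factor named for its induction of Tnf, had 287 to 321 CPM untreated and 468 to 585 CPM with aSyn, a log2 fold change of 0.84 (adjusted p = 0.00235). Zc3h12a encodes Regnase-1, a ribonuclease that degrades cytokine messages, and went from 7.47 to 10.97 CPM untreated to 17.5 to 26.8 CPM with aSyn (log2 fold change 1.17, edgeR adjusted p = 0.0385). The survival genes Bcl2a1b and Bcl2a1d rose by 0.84 and 1.43 on the log2 scale (adjusted p = 0.00423 and 0.00565), but they are close copies and the counting may have split reads between them. In these 5 genes the groups did not overlap.

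By role, 0 of 7 tested ligands, 1 of 18 receptors, 2 of 8 release factors, 0 of 26 receptor-complex genes, 0 of 13 feedback genes and 2 of 11 death-arm genes were called without the block. With it the counts were 1, 5, 3, 3, 1 and 4. Of the 26 receptor-complex genes, which are adaptors, kinases and ubiquitin ligases, the block called Map2k4 and Mapk14 higher and Xiap lower. Tnfrsf9, the receptor of Tnfsf9, was singled out after its values were seen. It had no count in any untreated library and 0 to 5.50 CPM in aSyn-treated cells, with a mean of 1.41 CPM over the 4 values, so most of it came from 1 library. It is 1 of the genes counted as higher with the replicate block, and nothing further is read from that call.

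Sorted donors were set against aSyn-treated cells to ask whether co-culture and sorting changed the pathway in treated cells. Mixing and sorting cannot be told apart in this comparison. No member was called between donors and the aSyn-treated cells that were never mixed: edgeR called 0 of 60 tests (10 members at 6 times), and 0 had an unadjusted p under 0.05. With the replicate block 0 were called and 1 had an unadjusted p under 0.05, and DESeq2 called 0. Over all genes 0% were called at 0, 15, 30, 60 and 150 min and 0.0304% at 300 min, and with the block 0% and 0.304%. The test with an unadjusted p under 0.05 was Tnfaip3 at 300 min, lower in donors by a log2 difference of -0.71, which did not pass adjustment (0.448).

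Tnfrsf1b in donors stayed above every untreated value at each time. It had 1024, 1136 and 926 CPM in experiments 1, 2 and 3 at 0 min, 869.6, 1086, 983 and 1507 CPM at 15 min and 915, 1092, 955 and 1236 CPM at 30 min. At 60 min it had 1182, 933 and 1376 CPM in experiments 1, 3 and 4, and at 150 min 604, 936, 719.5 and 1507 CPM. At 300 min the values were 493, 700.2, 745 and 1436 CPM. The order of group means was 60, 15, 30, 0, 150 and 300 min from high to low, and experiment 4 was the highest donor value at each time it was measured. Neighbours in this order differed by less than their spread, as the means ran from 1164 ± 222 CPM (SD, n = 3) to 843 ± 410.1 CPM (SD, n = 4).

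**Figure D3:**
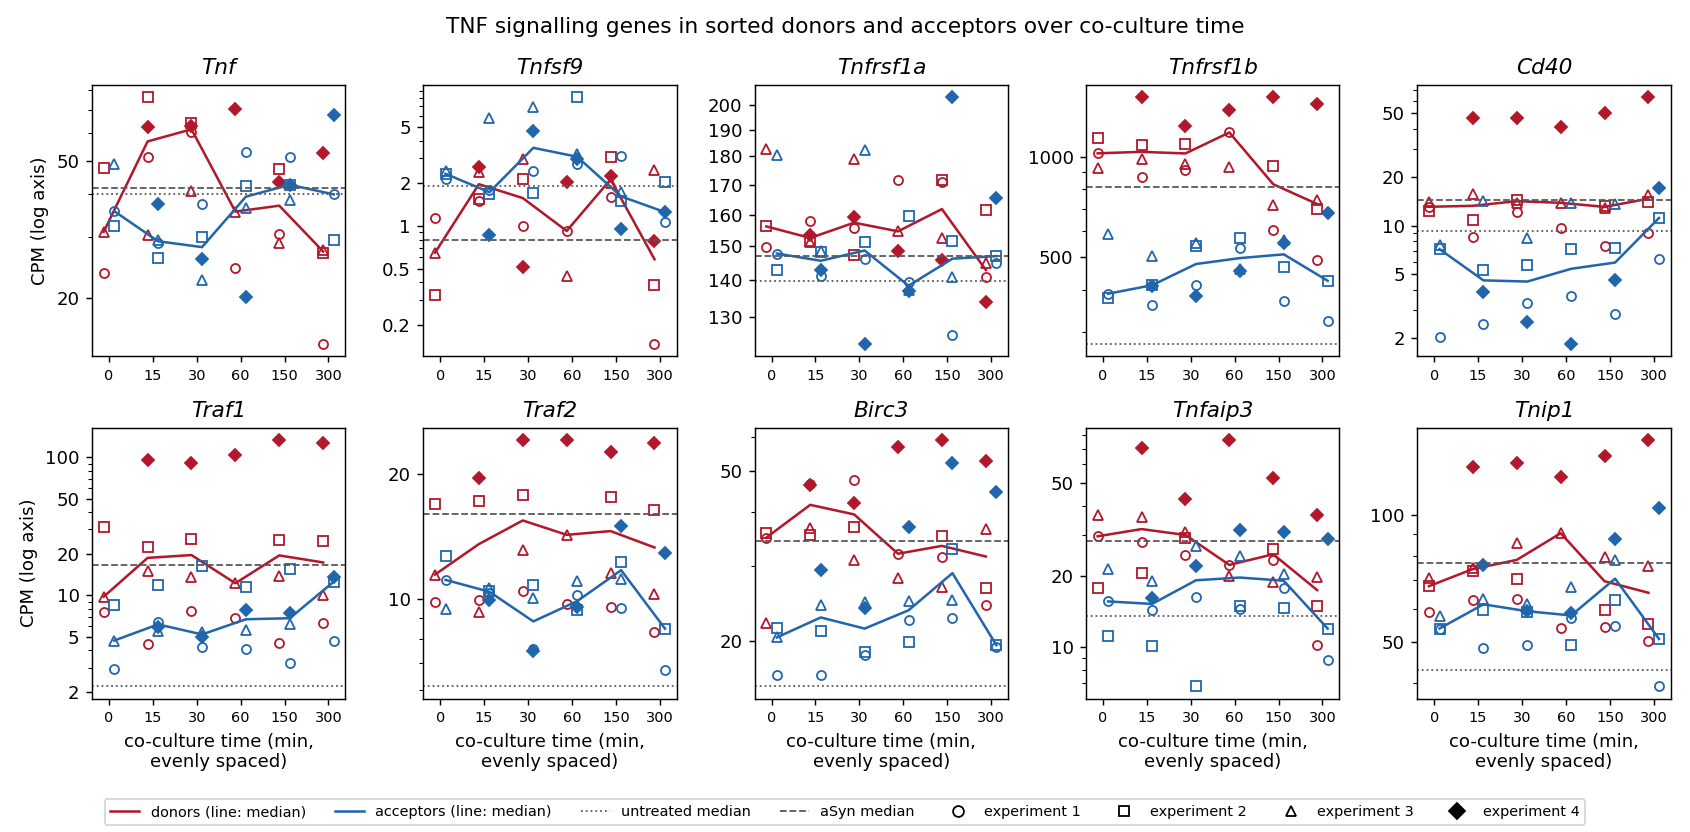
CPM on a log axis of each member in sorted donors (red) and acceptors (blue) against co-culture time in min, spaced evenly, with 1 symbol per experiment, solid lines through the medians, and the medians of untreated (dotted) and aSyn-treated cells (dashed). Tnfrsf1b is higher in donors than in acceptors at each time, and experiment 4 (filled diamonds) is the highest donor value of Traf1 and Cd40 wherever it was measured.

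Time itself was tested by an F test across the 6 donor groups, the 6 acceptor groups, and the difference between them. In each of the 3 tests edgeR called 0 of 10 members, with and without the replicate block, and DESeq2 called 0. Unadjusted p-values under 0.05 were found for 0 members in donors, 0 in acceptors and 1 in the difference without the block, and for 1, 0 and 1 with it. Over all genes the shares called were 0.0607%, 0.00759% and 0% without the block and 0.577%, 0.137% and 0.0456% with it. The single member under 0.05 was Tnf in each case, and after adjustment by edgeR its p-value for the difference was 1.00. With experiments 1 to 3 alone and the replicate block, 1 donor F test was called, that of Tnfrsf1b, beside 207 of all genes.

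Tnf is therefore given in full at 3 times. In donors it had 51.2, 76.3, 30.5 and 62.3 CPM at 15 min and 60.3, 64.3, 40.8 and 62.9 CPM at 30 min, and at 300 min it had 14.7, 27.0, 27.5 and 52.7 CPM. In acceptors it had 28.9, 26.1, 29.4 and 37.3 CPM at 15 min and 37.5, 30.1, 22.5 and 26.0 CPM at 30 min, and at 300 min 39.9, 29.5 and 67.8 CPM in experiments 1, 2 and 4. Donors were above acceptors in 4 of 4 experiments at 15 and at 30 min, and below them in 3 of 3 at 300 min. At the other times the direction was mixed, with donors higher in 1 of 3 experiments at 0 min, 1 of 3 at 60 min and 2 of 4 at 150 min. At 30 min the lowest donor value, 40.8 CPM, was above the highest acceptor value, 37.5 CPM. The log2 difference at 30 min was 0.97 ± 0.35 (SE, adjusted p = 0.195) without the replicate block and 0.95 ± 0.32 (SE, adjusted p = 0.0491) with it. Without experiment 4 and with the block it was 0.87 (adjusted p = 0.0599), so that call was lost without experiment 4. Group means of Tnf ran from 29.0 ± 6.42 CPM (SD, n = 4) in acceptors at 30 min to 57.1 ± 10.98 CPM (SD, n = 4) in donors at 30 min.

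The comparison of donors with acceptors of the same time asked how aSyn-treated cells differed from those they were mixed with. Acceptors received the tracer dye and donors did not, so aSyn and dye cannot be told apart in it. Without the replicate block edgeR called 3 of 60 tests, all of them Tnfrsf1b and all higher in donors. With it 12 were called, all higher in donors. The shares of all genes called at 0, 15, 30, 60, 150 and 300 min were 0.251%, 0.888%, 0.805%, 0.418%, 0.167% and 0.0304% without the block, and 4.28%, 9.57%, 10.8%, 6.70%, 5.19% and 1.38% with it. Members called with the block numbered 1, 3, 6, 1, 1 and 0 of 10 at these times. In these comparisons edgeR called none of the 7 astrocyte and 6 oligodendrocyte-lineage markers, with or without the block; of 3 endothelial and fibroblast markers 1 was higher in donors at 15 and at 30 min in both, and of 8 microglia markers the block called 1 at each of 0, 15 and 30 min. A fit of only the donor and acceptor groups compared called 0 of 60, and leaving out experiment 1, 2, 3 or 4 gave 1, 0, 1 and 6. The calls over all genes were likewise most numerous without experiment 4 at every time but 300 min, so this rise was not particular to the members.

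Tnfrsf1b in acceptors had 361, 414, 504 and 412 CPM at 15 min, 414, 542, 552 and 384 CPM at 30 min and 534, 574, 462 and 454 CPM at 60 min. Against the donor values above, the groups did not overlap at any of these times. The log2 differences were 1.39 ± 0.28 (SE, adjusted p = 0.00462) at 15 min, 1.15 ± 0.28 (SE, adjusted p = 0.0295) at 30 min and 1.20 ± 0.29 (SE, adjusted p = 0.0479) at 60 min. The call at 15 min was lost without experiment 2 (adjusted p = 0.0953), and those at 30 and 60 min without experiment 1, 2 or 3 (0.142 to 0.147 and 0.163 to 0.265). With the replicate block Tnfrsf1b was also called at 0 min, by 1.19 ± 0.26 (SE, adjusted p = 0.00497), and at 150 min, by 0.90 ± 0.23 (SE, adjusted p = 0.0140). At 300 min it was not called, at 0.83 ± 0.25 (SE, adjusted p = 0.0738). The difference at 300 min was still above 0 in 3 of 3 experiments, and it was called without experiment 4 with the block. Over all times the median in donors was 2.35, 2.43, 1.68 and 3.16 times that in acceptors in experiments 1, 2, 3 and 4.

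**Figure D4:**
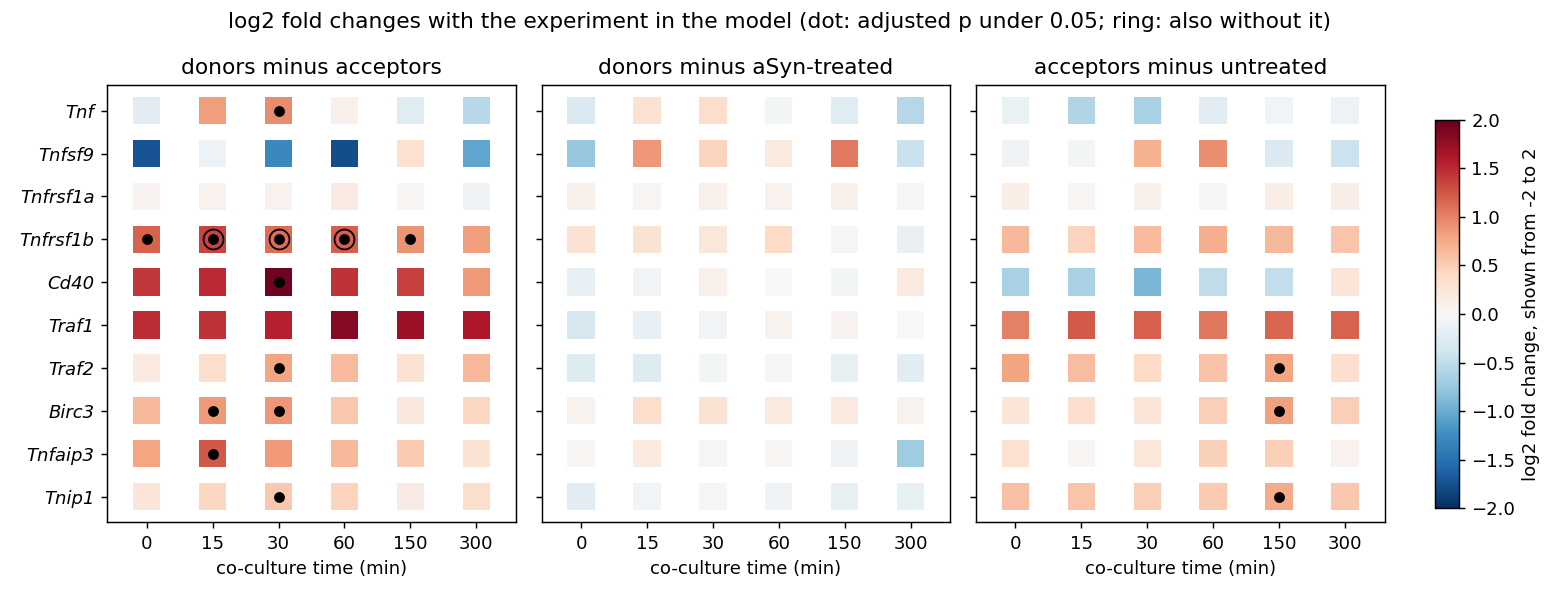
Log2 fold changes with the replicate block at each co-culture time in min, for donors minus acceptors, donors minus aSyn-treated cells and acceptors minus untreated cells; colour gives the value from -2 to 2, dots mark an adjusted p under 0.05 and rings a call also without the block. Dots are most numerous in the first panel at 30 min (6 members), and the middle panel has none.

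With the replicate block, members other than Tnfrsf1b were called at 15 min (Tnfaip3 and Birc3) and at 30 min (Tnf, Traf2, Cd40, Tnip1 and Birc3). Birc3 in donors had 46.7, 35.4, 36.9 and 46.5 CPM at 15 min against 16.6, 21.2, 24.3 and 29.4 CPM in acceptors. These groups did not overlap, and the log2 difference with the block was 0.87 ± 0.23 (SE, adjusted p = 0.0125), with 0.88 ± 0.23 (SE, adjusted p = 0.0102) at 30 min. Tnfaip3 at 15 min had 27.9, 20.7, 35.6 and 70.6 CPM in donors and 14.4, 10.1, 19.2 and 16.1 CPM in acceptors, again without overlap, a log2 difference of 1.25 ± 0.30 (SE, adjusted p = 0.00622). At 30 min the differences with the block were 0.79 ± 0.23 (SE, adjusted p = 0.0207) for Traf2, 0.54 ± 0.17 (SE, adjusted p = 0.0295) for Tnip1 and 1.95 ± 0.58 (SE, adjusted p = 0.0238) for Cd40. Without experiment 4 and with the block, Traf2 was not called at 30 min (0.53, edgeR adjusted p = 0.0736), and the other calls at 15 and 30 min named here held except that of Tnf.

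Cd40 and Traf1 were the members that experiments divided most. In donors at 30 min Cd40 had 12.3, 14.5, 13.9 and 47.0 CPM, and in acceptors 3.31, 5.70, 8.45 and 2.51 CPM. Without experiment 4 and with the block its log2 difference was 1.35 (adjusted p = 0.0110). Over all times the median of Cd40 in donors was 3.04, 1.86, 1.03 and 12.1 times that in acceptors in experiments 1, 2, 3 and 4. Traf1 had 7.77, 25.6, 13.5 and 90.1 CPM in donors and 4.25, 16.2, 5.41 and 5.02 CPM in acceptors at 30 min. Its donor medians over all times were 1.58, 2.06, 2.35 and 14.1 times the acceptor medians, and with the replicate block its log2 differences lay between 1.44 and 1.82 and were called at no time. In experiments 1 to 3 with the block Traf1 was called at 0, 30 and 60 min. Only in the donor and aSyn-treated cells of experiment 4 did Traf1 exceed 50 CPM or Cd40 exceed 40 CPM.

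Tnfrsf1a and Tnfsf9 were not called in donors against acceptors at any time with all experiments, with or without the block. With the block in experiments 1 to 3, Tnfsf9 was called at 60 min and Tnfrsf1a at no time. Tnfrsf1a had medians of 154 CPM in donors (lowest 134, highest 183, n = 22) and 147 CPM in acceptors (lowest 123, highest 203, n = 22), and its group means spanned a ratio of 1.15 across the 14 groups, against 3.84 for Tnfrsf1b. Tnfsf9 had medians of 1.52 CPM in donors (lowest 0.147, highest 3.07) and 2.25 CPM in acceptors (lowest 0.862, highest 8.11), from 2 to 100 counts per value.

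Acceptors had not received aSyn directly, and the comparison with untreated cells asked whether they differed from cells that were never mixed; mixing, dye and sorting cannot be told apart in it. It shares its untreated values with the comparison of aSyn-treated cells. Without the replicate block edgeR called 0 of 60 tests, 8 had an unadjusted p under 0.05, and DESeq2 called 0. With the block it called 3, all at 150 min and all higher in acceptors. Over all genes the shares called at 0, 15, 30, 60, 150 and 300 min were 0%, 0%, 0.114%, 0.0683%, 0.137% and 0% without the block, and 0.995%, 2.25%, 3.60%, 4.0%, 4.78% and 0.623% with it.

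Tnip1 in acceptors at 150 min had 54.6, 63.0, 78.3 and 87.6 CPM, all above the highest untreated value of 48.6 CPM. Its log2 difference from untreated cells was 0.76 ± 0.17 (SE, adjusted p = 0.00574) with the block, and it was higher in every experiment at each of the 6 times. Birc3 at 150 min had 22.7, 32.8, 24.9 and 52.3 CPM, and Traf2 had 9.48, 12.3, 11.2 and 15.0 CPM. Both overlapped with untreated cells across experiments but were higher in 4 of 4 within them, by 0.82 ± 0.23 (SE, adjusted p = 0.0304) and 0.79 ± 0.24 (SE, adjusted p = 0.0433) with the block. Experiment 4 was the highest acceptor value of all 3 genes at that time, and without it, with the block, Tnip1 alone of the 3 was called (0.69, edgeR adjusted p = 0.00130). Tnfrsf1b in acceptors was above its untreated value in 4 of 4 experiments at 30, 60 and 150 min, with a log2 difference of 0.73 ± 0.23 (SE, adjusted p = 0.0553) at 60 min that was not called with all 4 experiments. Without experiment 4 and with the block it was called at 30 and 60 min, Traf1 at 15, 30 and 150 min, and Tnip1 at every time but 300 min. That fit was chosen after seeing the data. Over all genes it called more than the block with all 4 experiments at 0 and 30 min, and fewer at the other times.

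Side by side, mean Tnfrsf1b was 303 ± 105 CPM (SD, n = 4) in untreated cells, 506 ± 57.8 CPM (SD, n = 4) in acceptors at 60 min, 918 ± 318 CPM (SD, n = 4) after aSyn alone and 1164 ± 222 CPM (SD, n = 3) in donors at 60 min. Untreated cells had the lowest of 14 group means for Tnfrsf1b, Traf1, Traf2, Tnip1, Birc3, Tnfaip3 and Tnfrsf1a. The highest mean was in donors for Tnf, Tnfaip3, Tnfrsf1a, Tnfrsf1b, Traf1, Cd40 and Birc3, in aSyn-treated cells for Traf2 and Tnip1, and in acceptors for Tnfsf9.

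In donors against acceptors 2, 3, 2, 1, 0 and 0 of the 83 tested genes of the wider pathway list were called from 0 to 300 min without the block, all of them Fas, Bcl2a1b or Bcl2a1d and all higher in donors. The shares of all genes called at these times were 0.251%, 0.888%, 0.805%, 0.418%, 0.167% and 0.0304%. With the block 6, 11, 13, 10, 8 and 3 of the list were called, of which 5, 10, 9, 7, 5 and 3 were higher in donors and 1, 1, 4, 3, 3 and 0 lower, beside 4.28%, 9.57%, 10.8%, 6.70%, 5.19% and 1.38% of all genes. In donors against aSyn-treated cells the count was 0 at every time in both models. In acceptors against untreated cells the count was 0 at every time without the block and 0, 2, 7, 6, 6 and 3 with it. The shares of all genes called with the block in acceptors against untreated cells were 0.995%, 2.25%, 3.60%, 4.0%, 4.78% and 0.623% at these times.

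Correlations between members were taken across the 52 values after the mean of each experiment was removed. The correlation of log2 CPM was between 0.63 and 0.91 in the 21 pairs among Tnfrsf1b, Traf1, Traf2, Tnip1, Birc3, Tnfaip3 and Cd40, a grouping made after the values were seen. It was highest for Traf2 with Tnip1. Tnf correlated at 0.08 to 0.42 with the other members, Tnfrsf1a at -0.11 to 0.45 and Tnfsf9 at -0.32 to 0.08. These values share the treatment groups and libraries, and so are descriptions only. The gap between donors and acceptors in experiment 4, by medians 14.1 times for Traf1 and 12.1 times for Cd40, was not removed. Its part in these correlations and in those below was not tested.

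Among all other genes, those with the pattern most like each member, up to 3 each, were found by the same correlation over 52 values. For Tnfrsf1b they were Clec4n (0.95), Igsf6 (0.95) and Il4ra (0.95), and for Traf1 they were Ms4a6d (0.96), Fpr1 (0.95) and Saa3 (0.95). For Tnip1 they were Clec4e (0.94), Nupr1 (0.91) and Acod1 (0.91), and for Traf2 they were Tnip1 (0.91), Clec4e (0.90) and Kansl2 (0.89). Cd40 was most like AW112010 (0.95) and Mx1 (0.94), Birc3 like Ninj1 (0.88), Cxcl16 (0.86) and Casp4 (0.86), and Tnfaip3 like Abcg1 (0.87), M6pr (0.84) and Ppp1r15b (0.84). The values were lower for Tnfsf9, with Manba (0.75), Hacd2 (0.73) and Lrrc71 (0.73), for Tnfrsf1a, with Smox (0.67), Stat3 (0.66) and Dnajb6 (0.66), and for Tnf, with Gmps (0.63), Surf2 (0.61) and Myg1 (0.58).

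In the annotation of build mm10 the members lie on chromosomes 2 (Traf1, Traf2, Cd40), 4 (Tnfrsf1b), 6 (Tnfrsf1a), 9 (Birc3), 10 (Tnfaip3), 11 (Tnip1) and 17 (Tnf, Tnfsf9). Tnf spans chr17:35199381-35202007 and Tnfrsf1b spans chr4:145213463-145246870, both on the minus strand and with no overlapping gene. Traf2, Tnip1 and Tnfsf9 each overlap 1 gene model on the opposite strand (Gm13433, Gm12230 and Gm11110), and whether the counting used strand is not given in the sources used here, so reads of these pairs may not have been told apart.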

How the data were processed

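Per the labels' protocols, 3′ end libraries (QuantSeq forward kit) of microglia were sequenced as 50 bp single reads. The authors deposited raw counts per gene symbol, per the file headers; STAR, Partek, DESeq2 and build mm10 are named in the submitters' processing notes, and strand use in counting is not given in the sources used here. A deposited normalized table was not used here. The members and gene lists were chosen with earlier results of these data known. All 10 members and, from the wider list, the genes called without the block in aSyn-treated against untreated cells or over time are named. Some single-gene values are not reported here.

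The numbers in the titles were taken as experiments. Same-numbered untreated libraries differed less (chi-square per degree of freedom 10.3 and 12.1, genes with at least 20 counts) than others (24.2 to 288) and were summed. Counts were tested with edgeR 4.0.16 (R 4.3.3; TMM, filterByExpr with a minimum count of 10, quasi-likelihood F test, 14 group means, Benjamini-Hochberg over 13169 genes, threshold 0.05), in 19 pairwise comparisons and 3 F tests. CPM used TMM-scaled totals and log2 CPM a prior count of 2. Standard errors are the log2 difference over the root of F. The pairing of samples comes from the replicate number in the titles: same-numbered samples deviated together from their group means in each of 69 pairs (r = 0.20 to 0.76), so the replicate block is given beside results it changes. By edgeR, the spread within groups (biological coefficient of variation) came to 38.1% without the block. With the block, which removes differences between experiments, it was 20.97%. Alternatives were DESeq2 1.42.0 (test and size factors), no low-count filter, only the groups compared, unsummed untreated libraries, and each experiment left out. The scripts were tested on simulated data. Total counts per library limit the precision of Tnfsf9 most. Gene positions are from GENCODE M21 (GRCm38, the build mm10) and promoter sequences from RefSeq.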

Additional observations from a re-analysis of the deposited data

Results flagged for a closer look

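In 100 sets of 4 values (a member in a group), 11 held a value whose gap to the nearest other was large against the whole range; chance flags about 1 in 20 groups. Of these, 6 were in experiment 4, all in aSyn-treated or donor cells. Traf1 in experiment 4 had 128.7 CPM in aSyn-treated cells (others 7.07 to 24.0), 133.3 CPM in donors at 150 min (others 4.52 to 25.1) and 125.6 CPM in donors at 300 min (others 6.33 to 24.5). Cd40 in experiment 4 had 47.05 CPM in donors at 30 min, 50.36 CPM at 150 min and 62.98 CPM at 300 min, against 7.53 to 15.5 CPM for the others at these times. Experiment 2 stood out in acceptors: Traf1 had 11.87 CPM at 15 min (others 5.48 to 6.38) and 16.23 CPM at 30 min (others 4.25 to 5.41), and at 60 min Tnfrsf1a had 159.5 CPM (others 137 to 139.6) and Tnfsf9 8.11 CPM (others 2.76 to 3.20). In experiment 3, Tnfsf9 had 3.181 CPM in aSyn-treated cells (others 0.349 to 0.811).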

How the results depend on the processing

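In aSyn-treated against untreated cells, 3 were called without the replicate block, 6 with it, 0 when only the compared groups were fitted and 5 with untreated libraries unsummed. Over all genes these fits called 329, 2524, 37 and 618. Leaving out 1 experiment gave 1 to 2, beside 73 to 301 of all genes. A fit of experiments 1 to 3 with the replicate block, chosen after seeing the data, gave 6, beside 1620 of all genes. In acceptors against untreated cells, 0 of 60 tests became 3 with the replicate block and 10 in experiments 1 to 3 with it. Over all genes, the fit of experiments 1 to 3 with the block called more acceptor differences than the fit without the block at each time. Compared with the block in all 4 experiments, it called more genes at 0 and 30 min and fewer at the other times. In donors against acceptors, 3 became 12 with the replicate block, 0 when only the compared groups were fitted and 19 in experiments 1 to 3 with the block, and 0 to 6 when 1 experiment was left out. The 6 came without experiment 4, where calls over all genes were also the most numerous of these 4 fits at every time but 300 min. From 0 to 300 min, experiments 1 to 3 with the block called 1450, 871, 1122, 588, 426 and 153 of all genes. A fit of only the compared groups called 42, 18, 13, 2, 1 and 3 of all genes. In donors over time, 0 became 1 in experiments 1 to 3 with the block, beside 207 of all genes. The log2 fold change of Tnf with aSyn changed sign, at -0.072 with the replicate block and -0.46 in experiments 1 to 3 with it, and ran from -0.42 to 0.51 with 1 experiment left out. That of Tnfrsf1a was -0.018 in experiments 1 to 3 with the block and ran from -0.017 to 0.27. DESeq2 called 4 members with aSyn and 4 tests in donors against acceptors, and DESeq2 size factors in edgeR gave 3 and 3. The causes were not tested, except that fits of fewer groups or experiments have fewer samples.

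The smallest counts limit Tnfsf9, at 2 to 100 counts per value, and Traf1, at 12 or more. Counts come from reads without stated molecular identifiers, so they carry more than counting error.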
